A study of Homo sapiens with 57 samples.

Results

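Transcripts of 7 histone genes were followed in polyA-selected RNA from HCT116, an established human line of colorectal carcinoma. They encode 3 linker histones (H1-2, H1-4 and H1-5), 3 copies of histone H2B (H2BC21, H2BC12 and H2BC5) and 1 copy of histone H2A (H2AC6). The members were a list of 10 Ensembl transcript identifiers with their gene names, of which 9 were matched to a row among the 228715 transcripts of the tables. The other, ENST00000396891 of H2BC12, is not analysed here. Of the 9, 8 passed the filter on low counts, as did 78478 transcripts in all. ENST00000331442 of H1-5 did not pass.

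The series has 57 samples, of which the 9 mRNA libraries are used here, in 3 groups of 3. All 9 came from HCT116 cells with an Spt5-HA-dhfr fusion, grown without TMP (trimethoprim, which keeps dhfr degron fusions stable). In all of them an Avi-tagged fragment of Spt5, residues 1 to 820, was expressed from the pCW57 vector under 24 hours of doxycycline (2 ug/ml). What separates the groups is its CTR1 region, for which the labels give 3 forms: WT, TA7 and TE7. Each form is carried by its own cell line, so the form and any other difference between the lines cannot be told apart. The labels do not say whether a line is 1 clone or whether replicates came from cultures of their own. The p-values therefore reflect the scatter among these 9 libraries alone, which could be technical.

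Most histone genes are transcribed during DNA replication, and their mRNAs usually end in a conserved stem-loop that the stem-loop binding protein SLBP holds, not in a poly(A) tail. Some of these genes also give polyadenylated RNA when the transcript is processed at a poly(A) signal downstream of the stem-loop. Core histones such as H2A and H2B form the nucleosome, and H1 linker histones bind the DNA that enters and leaves it. Spt5 accompanies RNA polymerase II along genes as it elongates. Selection with oligo-dT favours the polyadenylated forms. Reads from such forms and from stem-loop RNA carried through the selection cannot be told apart in these tables. In bulk RNA, more cells that make a transcript and more of it per cell cannot be told apart either.

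The starts of these genes carry the short motifs known from histone promoters, and the sequences are shown as a description. Whether a motif goes with a change in level was not tested. RefSeq windows on GRCh38.p14 were found for 7 of the 7 genes. They were matched by symbol, and the first start listed was used where the table gives 2. The search covered 250 bases before the start on both strands. CCAAT was found in 7 of 7 windows, against 33% of 27305 promoters. TATAAA, an element of core promoters, was in 5 of 7, against 11.1%. ATTTGCAT, the octamer known from H2B promoters, was in 3 of 7, against 1.66%. AAACACA, known from H1 promoters, was in 3 of 7, against 4.95%. The stretch just before the start is given 5′ to 3′ for the 5 genes that rose in TE7 against WT below. It is also given for H1-4, which did not pass the test. Capitals mark a match to 1 of these motifs on either strand.
H1-2, chr6:26056471-26056602, minus strand: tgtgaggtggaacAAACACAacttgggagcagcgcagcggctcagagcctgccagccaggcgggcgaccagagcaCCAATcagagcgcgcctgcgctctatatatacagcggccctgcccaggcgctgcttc
H1-4, chr6:26156197-26156328, plus strand: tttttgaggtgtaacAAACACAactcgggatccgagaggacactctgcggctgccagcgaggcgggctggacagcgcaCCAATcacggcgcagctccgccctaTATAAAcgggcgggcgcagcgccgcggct
H2BC12, chr6:27146859-27146990, minus strand: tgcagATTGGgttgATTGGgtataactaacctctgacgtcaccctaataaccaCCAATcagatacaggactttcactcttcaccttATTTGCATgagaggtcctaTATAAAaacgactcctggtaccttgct
H2BC5, chr6:26157989-26158120, plus strand: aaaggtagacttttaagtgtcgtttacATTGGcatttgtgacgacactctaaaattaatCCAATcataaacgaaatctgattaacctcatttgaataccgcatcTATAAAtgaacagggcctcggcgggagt
H2BC21, chr1:149886683-149886814, minus strand: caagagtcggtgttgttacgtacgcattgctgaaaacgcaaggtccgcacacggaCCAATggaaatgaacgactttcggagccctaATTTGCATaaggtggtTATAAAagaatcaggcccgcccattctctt
H2AC6, chr6:26124040-26124171, plus strand: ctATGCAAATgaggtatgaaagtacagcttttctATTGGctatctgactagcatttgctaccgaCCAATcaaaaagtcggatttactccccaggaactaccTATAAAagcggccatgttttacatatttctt
In the linker genes AAACACA lies 119 to 113 bases before the start in H1-2 and 117 to 111 in H1-4. The octamer lies 46 to 39 bases before the start in H2BC12 and in H2BC21, and on the opposite strand 130 to 123 bases before it in H2AC6. H2BC5 had no exact match to the octamer in this window. H1-4 also has TATAAA, 29 to 24 bases before the start, and H1-2 has no exact match to it. A match is a description of the letters and was not tested as a site.

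Library totals ranged from 64364751 to 90805283 estimated reads, with TA7 replicate 2 the deepest. Over 19822 transcripts of at least 5 CPM (read counts relative to library size, scaled with TMM factors), Spearman correlations were 0.915 to 0.964 within groups and 0.814 to 0.956 between groups. A library in which a transcript has 0 reads allows up to 0.033 to 0.0466 CPM before TMM scaling, the level of 3 reads, which covers counting error only. No transcript in these tables was paired with a gene name apart from the listed members, so markers of the cell line were not analysed here.

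The 7 genes differed widely in level, and their order per length was the same in 9 of 9 libraries. In TPM, a level per effective length, H2BC12 came first at 32.3 ± 4.11 in WT (SD, n = 3), followed by H2BC5 at 13.5 ± 0.979 with its 2 transcripts summed. H1-2 was at 8.29 ± 0.382 TPM, H2AC6 at 2.51 ± 0.551 with its 2 transcripts summed, H2BC21 at 1.88 ± 0.346 and H1-4 at 0.807 ± 0.288. H2AC6 and H2BC21 were the neighbours whose WT libraries overlapped. H1-5 was last, with 1 read in WT replicate 2 and 0 reads in the other 8 libraries. The TPM of H2BC12 rests on a model of 381 bases with an effective length of 230.4 to 250.9, so it depends more on that estimate than the values of longer members do. Copies of a histone gene have nearly alike coding sequences, so the division of reads between the H2B genes, between the H1 genes and with copies not listed here is an estimate and uncertain. The members summed to 59.3 ± 4.28 TPM in WT, 78.4 ± 8.47 in TA7 and 118 ± 9.94 in TE7 (SD, n = 3).

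The first comparison asks whether these mRNAs differ between cells that express the TE7 form and cells that express the WT form. After the 2 transcripts of H2BC5 and of H2AC6 were summed, 5 of the 6 genes tested rose in TE7 (H1-2, H2BC12, H2BC5, H2BC21 and H2AC6), by 1.83-fold to 2.68-fold, and 0 fell (quasi-likelihood test of edgeR, n = 3 per group, with a Benjamini-Hochberg threshold of 0.05). As single transcripts, 4 of 8 rose and 0 fell. Over all transcripts tested, 4.59% were called higher in TE7 and 4.81% lower. The TE7 libraries lay above the WT libraries without overlap for 5 of the 6 genes, and for 16.8% of all features tested. Among features of at least 5 CPM this was so for 27.4% of all lengths and for 35.2% of the members' lengths. Transcripts of the members' lengths, 381 to 2194 bases, were called higher in 4.25% of cases. At 5 CPM or more the share was 12.2% for all lengths and 15.8% for the 7655 transcripts of the members' lengths, whose median log2 change was 0.19. By their mean over the 9 libraries, H2BC21, H2AC6 and H1-4 lie under 5 CPM and so outside the sets of at least 5 CPM. The part of length and level in the members' changes was not tested. The median of the 6 genes was 0.99, beside -0.02 for all transcripts tested.

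H1-2, the linker histone with the most reads here, changed most of the 6 genes. It had 4.31, 3.48 and 3.30 CPM in the WT libraries, 5.15, 5.89 and 5.11 in TA7 and 9.50, 9.71 and 10.4 in TE7. The 3 groups did not overlap, with TA7 between WT and TE7. The share of all transcripts with such an order of the 3 groups was not counted. From WT to TE7 the fitted log2 change was 1.42 (SE 0.15), with an edgeR adjusted p of 0.00197. The call held in 21 of 21 alternatives, with adjusted p up to 0.0124 and log2 changes of 1.33 to 1.55.

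H1-4, the other linker histone with reads in every library, did not pass the test. Its level was 0.384, 0.352 and 0.588 CPM in WT, 0.359, 0.601 and 0.386 in TA7 and 0.506, 0.473 and 0.396 in TE7. These ranges overlap in all pairs of groups. The fitted log2 change from WT to TE7 was 0.05 with a 95% interval of -0.81 to 0.92, and the edgeR adjusted p was 0.958. With 23 to 56 reads per library, a change of the size seen for H2BC12 (0.87) lies inside that interval and could not have been told from none.

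H2BC12, the H2B gene with the highest level per length, had 7.05, 6.08 and 7.02 CPM in WT, 7.57, 8.63 and 7.40 in TA7 and 12.6, 11.3 and 12.96 in TE7. Its TE7 libraries lay above the other 6. The log2 change from WT to TE7 was 0.87 (SE 0.12), with an edgeR adjusted p of 0.00569, and the call held in 21 of 21 alternatives.

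H2BC5 carried most of its reads on the 789-base transcript ENST00000289316, which held 89.3% to 99.5% of the TPM of the gene's 2 transcripts. Summed, the gene had 8.35, 6.77 and 5.85 CPM in WT, 7.42, 10.9 and 8.06 in TA7 and 13.9, 13.7 and 15.3 in TE7. WT and TA7 overlapped, and TE7 lay above both. The log2 change from WT to TE7 was 1.03 (SE 0.19), with an edgeR adjusted p of 0.0154. Without WT replicate 2 or 3, or TE7 replicate 1, 2 or 3, the adjusted p was 0.0605, 0.0545, 0.0513, 0.0515 or 0.0579. The 496-base transcript ENST00000377777 had 2.5 to 31.8 estimated reads per library and a log2 change of -0.08 (SE 0.77, edgeR adjusted p = 0.968).

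H2BC21, the member on chromosome 1, had 4.23, 2.56 and 3.10 CPM in WT, 3.76, 5.16 and 4.01 in TA7 and 6.56, 5.64 and 6.91 in TE7. TE7 did not overlap with WT or TA7, while WT replicate 1 lay inside the TA7 range. The log2 change from WT to TE7 was 0.95 (SE 0.23), close to the threshold with an edgeR adjusted p of 0.041. Leaving out WT replicate 1 kept the call, and leaving out any other single library ended it. The adjusted p was then 0.0557 (without TA7 replicate 2) to 0.129 (without WT replicate 3). Over all alternatives the call of H2BC21 held in 10 of 21.

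**Figure D1:**
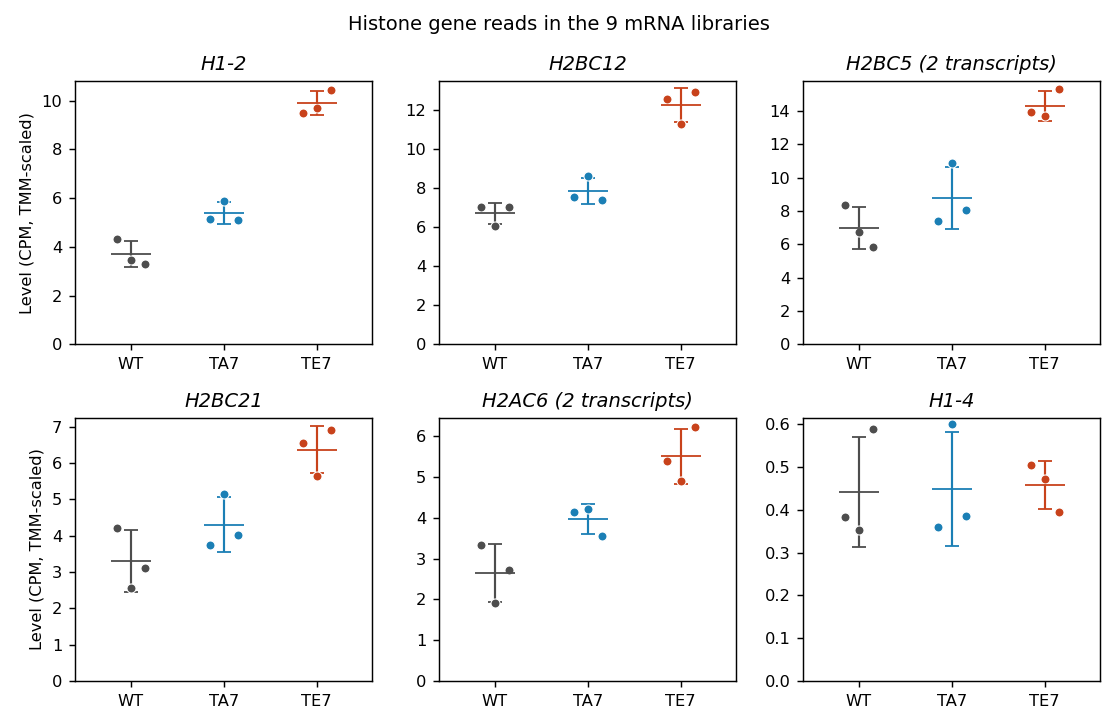
Level of 6 histone genes in CPM scaled with TMM factors (y axis from 0, its own range in each panel) in the WT, TA7 and TE7 libraries. Points are single libraries, and the wide tick with its bar gives the mean and SD (n = 3). TE7 lies above WT without overlap in 5 panels, and for H1-4 the groups overlap.

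H2AC6 shows why the sum over a gene's transcripts was used. In each library its estimated reads were all assigned to 1 of its 2 transcripts, of 1654 and 1668 bases. Reads that both transcripts could give are divided by estimate, so a switch between the transcripts themselves cannot be told from these values. ENST00000377791 held 100% of the estimated reads in all WT libraries, in TA7 replicates 1 and 3 and in TE7 replicate 3. ENST00000314088 held all of them in TA7 replicate 2 and in TE7 replicates 1 and 2, and 0 reads elsewhere. For the first transcript's share, TE7 minus WT was -66.7 percentage points, with exact permutation p = 0.4 (two-sided, n = 3 per group). The smallest p such a test can give is 0.1. In the family of 6 such tests the smallest Benjamini-Hochberg adjusted p was 1. As single transcripts neither passed the test for TE7 against WT, with edgeR adjusted p of 0.955 and 0.218.

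Summed, H2AC6 had 3.32, 1.90 and 2.73 CPM in WT, 4.15, 4.22 and 3.55 in TA7 and 5.40, 4.90 and 6.24 in TE7. The 3 groups did not overlap, and here too the share of all transcripts with this order was not counted. From WT to TE7 the log2 change was 1.06 (SE 0.23), with an edgeR adjusted p of 0.0294. As for H2BC21, the call held without WT replicate 1. It was lost without any other single library, with adjusted p of 0.052 (without TA7 replicate 1) to 0.0997 (without TE7 replicate 3). Over all alternatives the call of summed H2AC6 held in 10 of 21.

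**Figure D2:**
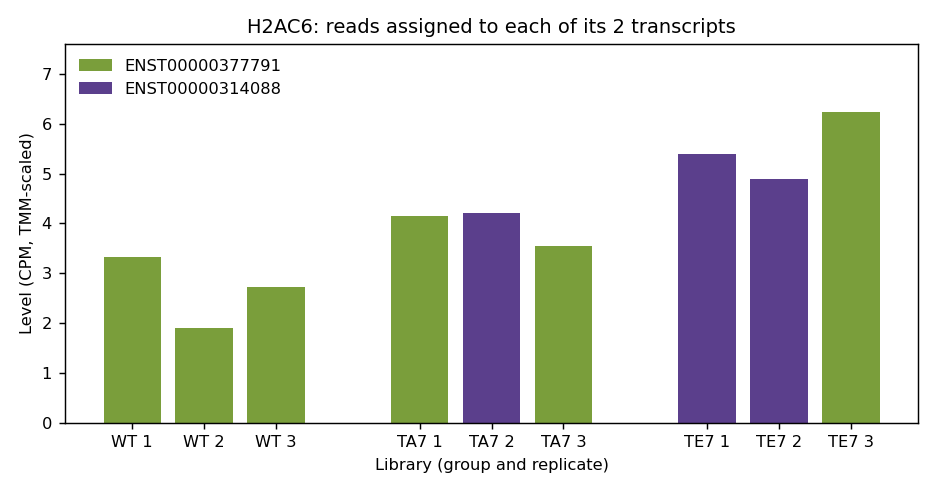
Level of the 2 H2AC6 transcripts in each library, in CPM scaled with TMM factors, stacked, with the y axis from 0. Each bar is filled by 1 transcript only: ENST00000314088 in TA7 replicate 2 and TE7 replicates 1 and 2, and ENST00000377791 in the other 6 libraries, while bar height goes from 1.90 in WT replicate 2 to 6.24 in TE7 replicate 3.

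The second comparison set TA7 against WT. In edgeR, 0 of the 6 genes passed, where 0.0408% of all tested transcripts were called higher in TA7 and 0.0204% lower. The median log2 change of the 6 genes was 0.36, beside 0 for all transcripts. The fitted change was above 0 for all 6, but that of H1-4 (0.02) went to -0.05, -0.11 or -0.24 without WT replicate 1, WT replicate 2 or TA7 replicate 2. At an unadjusted p under 0.05 there were 2 genes, H1-2 and H2AC6, and 7.73% of all features tested. H1-2 had a log2 change of 0.54 (95% interval 0.21 to 0.88, edgeR adjusted p = 0.367). DESeq2 called H1-2 alone of the 6 (adjusted p = 0.00979), in a fit that called 2.81% of all transcripts in either direction. With limma on log2(TPM + 0.1), H1-2 was again the 1 gene called (adjusted p = 0.043), beside 0.218% of all transcripts, and on log2(TPM + 1) it had an adjusted p of 0.0559. For summed H2AC6 the log2 change was 0.58 (95% interval 0.05 to 1.11, edgeR adjusted p = 0.603). The 3 TA7 libraries lay above the 3 WT libraries for H1-2, H2BC12 and H2AC6, where 7.48% of all tested transcripts did so. Within TA7, replicate 2, the deepest library, was the highest for each of the 6 genes. Without it the log2 change was 0.15 in place of 0.33 for H2BC5 and 0.24 in place of 0.39 for H2BC21, and 0.48 and 0.55 for H1-2 and H2AC6. H2BC5 was also lower without WT replicate 3, at 0.22. H2BC21 was at 0.24 without WT replicate 2 and at 0.62 without WT replicate 1.

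TE7 was then set against TA7, which tests directly how far the changes from WT differ between these 2 forms. Of the 6 genes, 2 were higher in TE7 and 0 lower (edgeR quasi-likelihood test, n = 3 per group), where 1.29% of all tested transcripts were called higher and 1.78% lower. H1-2 differed by 0.88 on the log2 scale (SE 0.15, adjusted p = 0.0261). H2BC12 differed by 0.64 (SE 0.12, adjusted p = 0.0351). H2BC5 and H2BC21 did not pass, with log2 changes of 0.70 (adjusted p = 0.0899) and 0.56 (adjusted p = 0.229), nor did H2AC6 at 0.47 (adjusted p = 0.312). DESeq2 called H2BC5 as well (adjusted p = 0.00617), which made 3 genes, in a fit that called 13.4% of all transcripts in either direction, against 3.07% in edgeR. For 5 of the 6 genes the TE7 libraries lay above the TA7 libraries, as did 15.9% of all tested features. At 5 CPM or more that share was 29.3% for all lengths and 43.4% for the members' lengths. Of these features 4.04% and 5.32% were called higher, and the median log2 change at the members' lengths was 0.22. The calls of H1-2 and H2BC12 rest on all TA7 and TE7 libraries. Without any 1 of these 6 the adjusted p for H1-2 was 0.0737 (without TA7 replicate 1) to 0.122 (without TA7 replicate 3). For H2BC12 it was 0.0907 (without TA7 replicate 2) to 0.154 (without TA7 replicate 3), and 0.0521 or 0.052 without WT replicate 2 or 3. The comparisons share the WT or TA7 libraries, so they are given side by side and not set against each other.

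**Figure D3:**
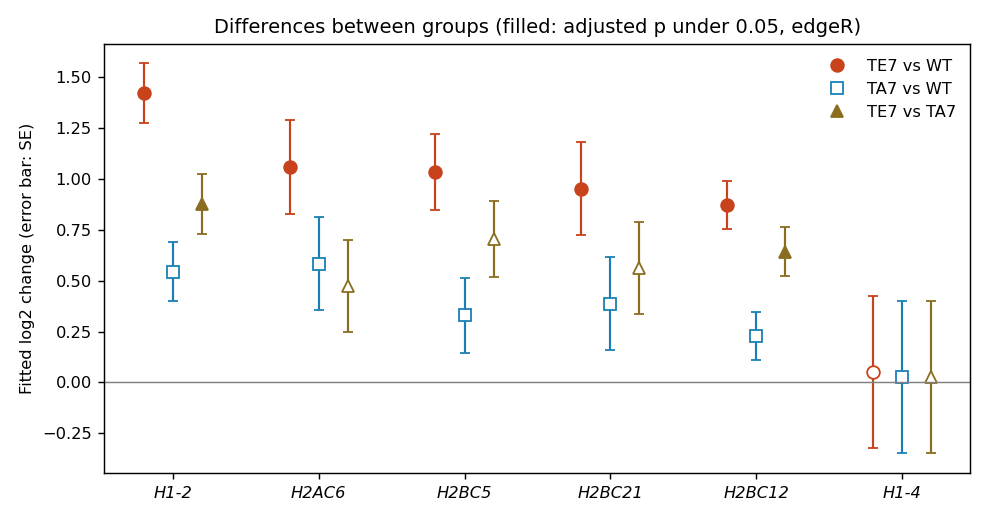
Fitted log2 change of each gene in TE7 against WT, TA7 against WT and TE7 against TA7 (y axis, edgeR, bars are the SE, n = 3 per group). Filled symbols passed the threshold: 5 genes in TE7 against WT, and H1-2 and H2BC12 in TE7 against TA7. H1-4 lies near 0 with a wide SE of 0.37.

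The number of H1-2 reads per read of a core histone gene was compared within libraries, which no scaling between libraries affects. These ratios were chosen after the values above were seen. H1-2 had the largest change from WT to TE7, so a higher mean ratio in TE7 follows from that choice. It adds no separate evidence. Against H2BC12 the ratio was 0.611, 0.572 and 0.470 in WT, 0.681, 0.683 and 0.691 in TA7 and 0.756, 0.860 and 0.806 in TE7. The 3 groups did not overlap, with TA7 again in the middle. Against summed H2BC5 it was 0.531 ± 0.028 in WT and 0.691 ± 0.017 in TE7 (SD, n = 3), without overlap, and TA7, at 0.623 ± 0.076, overlapped with both. Against H2BC21 it was 1.15 ± 0.182 in WT and 1.56 ± 0.143 in TE7, without overlap. Against summed H2AC6 it was 1.45 ± 0.34 in WT and 1.81 ± 0.16 in TE7, and these groups overlapped. Here TA7 was not in the middle: at 1.36 ± 0.103 its mean lay below that of WT, with overlap, and its libraries lay below those of TE7 without overlap. In a family of 12 exact permutation tests (two-sided, 3 against 3) the smallest p was 0.1, the lowest this design allows, and the smallest Benjamini-Hochberg adjusted p was 0.171. No ratio could therefore pass 0.05.

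**Figure D4:**
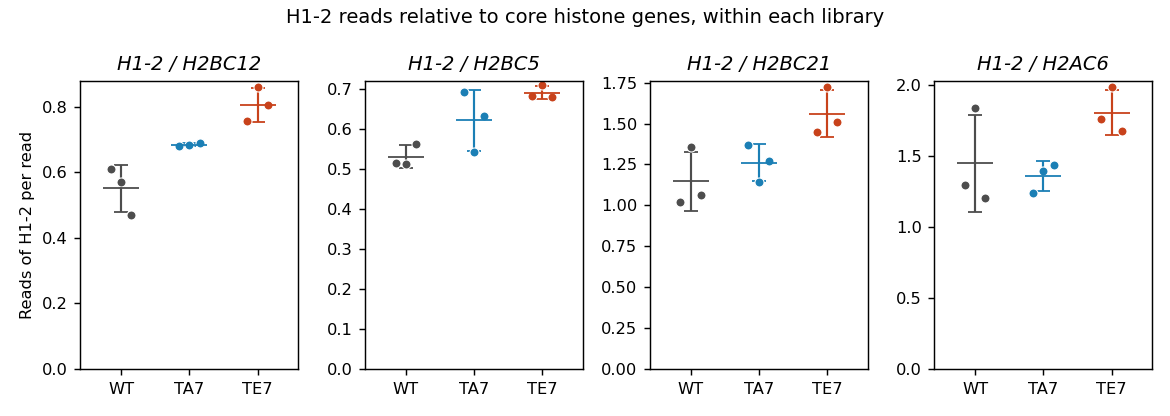
Estimated reads of H1-2 per read of H2BC12, H2BC5, H2BC21 and H2AC6 (y axis from 0) in the WT, TA7 and TE7 libraries, with points for libraries and the mean and SD (n = 3). Against H2BC12 the groups run from 0.551 in WT to 0.685 in TA7 and 0.807 in TE7 without overlap, and against H2AC6 WT and TE7 overlap.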

How the data were processed

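Reads were trimmed with cutadapt 2.3 and quantified with Salmon 1.3.0 on build hg19, per the submitters' processing notes. For the transcript set and the options of Salmon, nothing is given in the sources used here. The deposited tables give an estimated count and a TPM value per transcript, per the file headers. The authors' estimated counts are not normalized and divide reads that transcripts share. TPM, deposited by the authors, is scaled per effective length.

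Counts were rounded, filtered with the default of edgeR 4.0.16 and scaled with TMM factors (0.92 to 1.04). One quasi-likelihood model with group as its term was fitted to the 9 libraries, with p-values adjusted over all transcripts tested. A second fit had the H2BC5 pair and the H2AC6 pair each summed. Intervals are at 95%. The fit was also run on simulated counts, with changes set only in transcripts of at least 5 CPM. Its outcome is not given here and is not used as support for the members.

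Members, lists and tests were chosen with earlier results of these data known. All members are named. The rule for other transcripts took the 2 highest and 2 lowest correlations with the members' summed level. Other histone genes, factors of histone mRNA processing and cell markers were listed by symbol, and are not analysed here because no table paired these transcripts with symbols. The planned share of H2BC12 transcripts was not run, since 1 of its transcripts was matched.

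Alternatives were DESeq2 1.42.0, limma 3.58.1 on TPM, other scalings and filters, a replicate block, an effective length offset and fits without single libraries.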

Additional observations from a re-analysis of the deposited data

How the results depend on the processing

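Counts of called members are given as transcripts, then as genes after summing. The main counts were 4 and 5 for TE7 against WT, 0 and 0 for TA7 against WT, and 2 and 2 for TE7 against TA7. H1-2 and H2BC12 kept their calls for TE7 against WT in 21 of 21 alternatives, and the 5 genes that rose in TE7 stayed above WT in all 21. Each result that lost its call kept its direction. DESeq2 called 2 and 1 for TA7 against WT, where it called 2.81% of all transcripts in either direction against 0.0612% in edgeR, and 3 and 3 for TE7 against TA7. One of the 2 transcripts it called for TA7 against WT was H2AC6 ENST00000314088, at 0 reads in all WT libraries. DESeq2 also called this transcript for TE7 against WT (adjusted p = 1.06e-07). With 0.1 added to TPM, limma called 1 and 1 for TA7 against WT (0.218% of all transcripts). With no filter beyond 1 read, which adds tested transcripts, 3 genes were called for TE7 against WT, without H2BC21 and H2AC6 (3.06% of all transcripts, against 9.4%). TE7 against TA7 then had 0 and 0 (0.787%, against 3.07%). Fits of only the 2 groups compared called 3 genes for TE7 against WT, also without H2BC21 and H2AC6 (6.96% of all transcripts). With a replicate block this was 3 genes, without H2BC21 and H2AC6 (6.77%), and TE7 against TA7 had 0 and 0 (1.4%). In edgeR with the block, 3 transcripts and 3 genes had an unadjusted p under 0.05 in that comparison. In the main fit it was 4 of either, beside 19.3% of all transcripts tested. The share of all transcripts with the block was not counted. Replicate numbers were not shown to pair the libraries. Same-numbered libraries correlated at -0.11 to 0.31 in their deviations from the group mean. In 5 of 9 such comparisons the same number gave the highest correlation. It did so each time for replicate 3 (0.205, 0.248 and 0.147) and never for replicate 2, so sharing between some same-numbered libraries was not excluded. Without WT and TA7 replicate 1 together, an alternative chosen after the data were seen, TE7 against TA7 had 1 and 1 (6.04% of all transcripts). Leaving out 1 library gave 2 to 4 transcripts and 2 to 5 genes for TE7 against WT (3.71% to 11.7% of all transcripts). It gave 0 to 2 of either for TE7 against TA7 (0.354% to 5.63% of all transcripts). For the share of the first transcript, TA7 minus WT then ranged from -1.68 to 2.27 percentage points in H2BC5 and from -50 to 0 in H2AC6. With the effective length offset, 5 genes were called for TE7 against WT (10.3% of all transcripts). For the calls lost or gained, the cause was not tested. Depth limits H1-4, with 23 to 56 reads per library, H1-5, with 1 read in all, and ENST00000377777, with 2.5 to 31.8.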

Other observations

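The members' summed level, which was not tested, was 23.8 CPM in WT, 30.8 in TA7 and 48.8 in TE7 (means, n = 3), and other transcripts were compared with it over the 9 libraries. Of 19819 other transcripts with a mean of at least 5 CPM, 1303 had a Pearson correlation above 0.9 with the log2 of the members' summed CPM. The libraries fall into groups, so this likeness mostly repeats the difference between groups, and it is given as a description with no test. The tables pair none of these transcripts with a gene. The closest was ENST00000230990.7_3, of 2358 bases, at 31.0 CPM in WT, 43.6 in TA7 and 84.7 in TE7 (means, r = 0.996, n = 9 libraries). Next was ENST00000357037.6_3, of 3570 bases, at 292, 365 and 574 CPM (r = 0.994). The most opposite was ENST00000377403.6_2, of 9146 bases, which went from 79.2 CPM in WT to 58.9 in TA7 and 31.8 in TE7 (r = -0.994). ENST00000294485.6_2, of 7365 bases, went from 7.52 to 5.97 and 3.61 CPM (r = -0.989).

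As a share of all reads, the members summed to 21.5 to 25.4 CPM without TMM factors in the WT libraries, 28.9 to 36.3 in TA7 and 44.2 to 51.9 in TE7, without overlap between the groups. This share uses no scaling factor beyond the library total. How many other transcripts separate all 3 groups in this way was not counted, so the separation is not given as particular to the members.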
